A study of Mus musculus with 6 samples.

Results

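The 40 genes described here encode proteins that copy DNA or prepare cells to copy it, and they were compared between macrophages in control medium and macrophages in medium from a tumour cell line. They were chosen by gene symbol as genes of origin licensing, the replicative helicase, DNA polymerases and the sliding clamp, nucleotide supply, replication-coupled chromatin assembly and repair, and E2F regulation. All 40 symbols were found among the 55421 rows of the deposited count table, and all 40 passed the filter on low counts that left 13853 genes for testing. RNA was sequenced from wild-type (WT) mouse macrophages grown from bone marrow in macrophage colony-stimulating factor (M-CSF). The untreated group was 3 wells kept in RPMI-1640 with fetal bovine serum, antibiotics and M-CSF. The conditioned-medium group was 3 wells in which that medium was mixed in equal parts with medium from LL-2, a mouse Lewis lung carcinoma cell line, giving 50% conditioned medium. Every well was lysed 24 h later. The sources used here do not give strain, age or the number of mice, and no wells in medium conditioned by another cell type were analysed here. Products of LL-2 cells and the smaller share of fresh medium with its M-CSF cannot be told apart in this design.

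DNA replication starts when the origin recognition complex, Cdc6 and Cdt1 load the MCM helicase onto DNA in G1, and continues in S phase when Cdc45 and GINS switch that helicase on and polymerases, primase and the PCNA clamp follow it. Transcription of most of these genes is driven by E2F factors. Pocket proteins of the retinoblastoma family hold back several E2F factors until cyclin-dependent kinases, that of cyclin E among them, release these factors. Macrophages grown from bone marrow divide in response to M-CSF, and part of such a culture is in cycle.

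The libraries held 24179548 to 25916709 counts in the untreated group and 28447825 to 30040682 in the conditioned-medium group, and the 40 genes together took 0.0551% to 0.0961% of them. The smallest count of any of the 40 in a library was 22 and the largest 4603, and 12 of them had under 100 counts in at least 1 library. Levels are given as CPM (counts per gene relative to library size) after TMM scaling. A count of 0 would have allowed up to 0.0999 to 0.124 CPM, taken on the library totals before that scaling. The 7 macrophage markers summed to 50530 to 59722 CPM in untreated wells and 56691 to 61271 CPM in conditioned medium, but Lyz2, which was not called, carried most of that sum (45410 and 49293 CPM on average). Of the 7, Csf1r, Mertk and Itgam rose, and Adgre1, Cd68 and Fcgr1 fell. Of 6 epithelial and carcinoma markers, Cldn4 was at 0 in every library, Epcam, Krt8, Krt18 and Krt19 were at or near 0, and the list summed to 0.585 to 1.41 CPM.

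With conditioned medium, 31 of the 40 replication genes fell and 0 rose by edgeR's quasi-likelihood test at an adjusted p under 0.05, while 15.2% of all tested genes fell and 12.6% rose (27.9% in either direction). The other 9 genes were not called. As none of the 40 had a positive estimate, 0 rose at an unadjusted p under 0.05 either, and DESeq2 and limma-voom also called 0 higher. Every one of the 40 had a negative log2 fold change (conditioned medium minus untreated), from -1.45 for Mcm5 to -0.01 for Slbp, with a median of -0.57 against 0.01 over all tested genes; Slbp turned to 0.05 without scaling beyond the total count. Of all tested genes, 48.07% had a negative value. Among the 31, the estimate was past 1.5-fold for 18 and past 2-fold for 7. The summed level of the 40 genes was 901, 974 and 806 CPM in untreated wells and 609, 634 and 540 CPM in conditioned medium. Each conditioned well lay below each untreated well, and the mean went from 894 ± 84.2 to 594 ± 48.8 CPM (SD, n = 3 per group), 1.504-fold lower. In a bulk sample, fewer cells in S phase and less of these RNAs per cycling cell cannot be told apart. No label ties the wells to separate mice or cultures, so each p-value reflects the spread between wells, which may be technical.

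**Figure D1:**
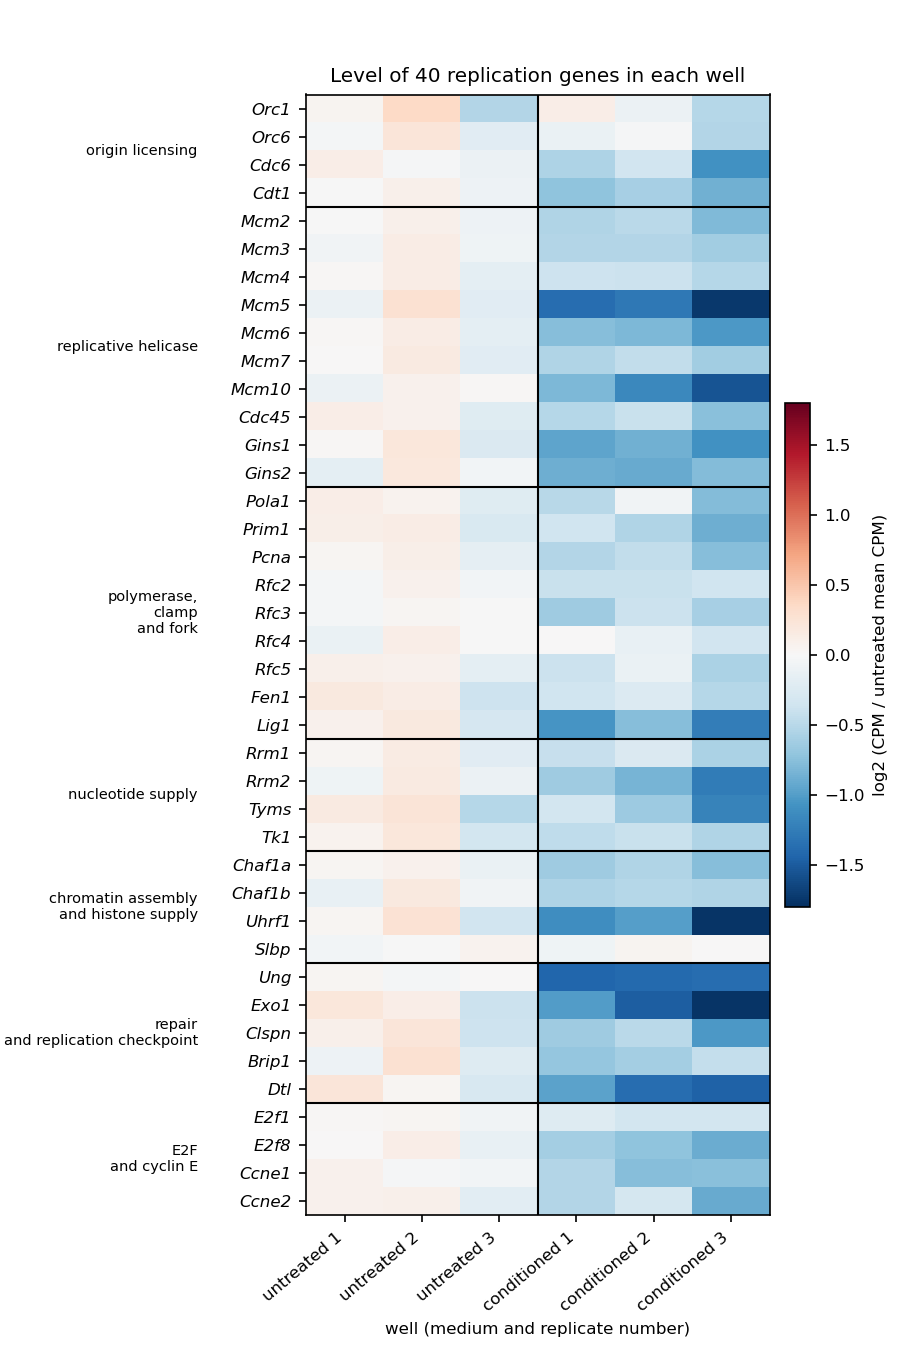
Level of each of the 40 genes (rows, grouped by role) in each of the 6 wells (columns), as the log2 ratio of its CPM to its mean in untreated wells. Blue is lower and red is higher than that mean. The conditioned wells are blue in nearly every row, with Slbp, Rfc4, Orc6 and Orc1 the palest. In Slbp, Rfc4 and Orc1 at least 1 conditioned well lies above the untreated mean.

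Of the 40 genes, 32 had conditioned wells that were all below all untreated wells, against 21.6% of tested genes, and 0 had the reverse, against 21.2%. With the replicate number as a block, 35 fell and 0 rose, against 19.3% and 17% of tested genes. The edgeR test for a change beyond 1.5-fold (glmTreat) called 6 of the 40 lower and 0 higher, against 2.25% and 1.24% of tested genes. These were Mcm5 (adjusted p = 0.00230), Ung (0.00619), Dtl (0.0273), Uhrf1 (0.0356), Mcm10 (0.0377) and Mcm6 (0.0445). Lig1 was just outside at 0.0503 by the same glmTreat test. The count of 6 was 2 when untreated replicate 1, untreated replicate 2 or conditioned-medium replicate 3 was left out, 2 with DESeq2 or limma-voom, and 3 without scaling beyond the total count.

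Sequence before the start site was examined because the genes share E2F as a known regulator, and the RefSeq promoter table (GRCm38.p6) held windows for 34 of the 40. Each window ran from 250 bases before to 50 bases after an annotated start, 300 bases in all. An E2F motif was counted where TTTCCCGC, TTTCGCGC, TTTGCCGC or TTTGGCGC occurred on either strand. It was present for 13 of the 34 genes (38.24%), against 2.6% of all genes in the table and 4.67% of tested genes. The 40 genes were assembled in part as E2F targets, so that share is a description of the list. The 13 were Orc1, Cdc6, Cdt1, Mcm3, Mcm5, Mcm6, Mcm7, Pola1, Rfc3, Lig1, Uhrf1, Clspn and Dtl. Of these 13, 11 fell, with a median log2 fold change of -0.69. Of the 21 with a window but no match, 15 fell, with a median of -0.57. Both counts stand beside 15.2% of all tested genes that fell, and the difference between them was not tested. The 160 bases before the start are shown for 4 genes: the gene with the lowest log2 fold change (Mcm5), another helicase subunit with several matches (Mcm6), a gene whose match touches the start (Dtl), and the gene with the value nearest 0 (Slbp). Each runs 5′ to 3′ on the gene's own strand, with E2F matches in capitals. They lie at chr8:75109349-75109508 (plus strand, Mcm5), chr1:128359706-128359865 (minus strand, Mcm6), chr1:191575545-191575704 (minus strand, Dtl) and chr5:33652575-33652734 (minus strand, Slbp).
Mcm5: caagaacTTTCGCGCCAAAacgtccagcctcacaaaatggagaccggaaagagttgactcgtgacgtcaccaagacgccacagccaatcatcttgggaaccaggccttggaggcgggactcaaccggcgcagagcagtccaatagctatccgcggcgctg
Mcm6: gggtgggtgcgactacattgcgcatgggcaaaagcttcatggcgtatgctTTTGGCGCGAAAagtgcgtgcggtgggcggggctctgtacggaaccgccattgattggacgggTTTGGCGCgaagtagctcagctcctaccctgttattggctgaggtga
Dtl: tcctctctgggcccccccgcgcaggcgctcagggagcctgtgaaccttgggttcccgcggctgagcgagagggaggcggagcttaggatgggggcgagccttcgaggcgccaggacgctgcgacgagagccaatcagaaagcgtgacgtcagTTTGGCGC
Slbp: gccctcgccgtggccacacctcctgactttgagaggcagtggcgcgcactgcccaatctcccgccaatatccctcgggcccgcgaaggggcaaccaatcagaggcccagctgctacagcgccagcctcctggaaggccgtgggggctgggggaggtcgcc
Mcm5 held 2 matches that overlap on opposite strands, beginning 153 and 149 bases before the start. Mcm6 held an overlapping pair of the same kind, beginning 110 and 106 bases before the start, and another match 47 bases before it. In Dtl the match covered the last 8 bases before the start. Slbp had no match to these letters in its window. The CCAAT motif, read on both strands, was present in windows of 22 of the 34 genes (64.71%, against 42.78% of tested genes). It did not overlap an E2F match in the stretches shown. TTTGAA, the letters of the cell cycle homology region (CHR) found at many genes of G2 and mitosis, was present for 4 of the 34 (11.76%, against 14.7% of tested genes) and for 15 of 21 G2 and mitosis genes (71.43%), of which 1 had an E2F match (4.76%). A match is a match of letters and not a measured binding site.

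The counts by role, here and below, stand beside 15.2% of all tested genes that fell (19.3% with the replicate block). Origin licensing was represented by 4 genes, of which 2 fell, and the median log2 fold change was -0.42. Cdt1, which brings the MCM helicase to origins, stood at 31.1, 33.1 and 29.3 CPM in untreated wells and at 18.9, 20.5 and 17.2 CPM in conditioned medium. The groups did not overlap, and the log2 fold change was -0.73 (edgeR adjusted p = 0.000148, SE 0.08). Its licensing partner Cdc6 stood at 5.603, 5.12 and 4.81 CPM untreated and at 3.51, 4.07 and 2.44 CPM conditioned, again without overlap, with a log2 fold change of -0.63 (edgeR adjusted p = 0.0350, SE 0.19). The Cdc6 call was lost when untreated replicate 1 or 2 or conditioned-medium replicate 1 or 3 was left out, with adjusted p of 0.0668 to 0.108. Orc1 and Orc6, subunits of the origin recognition complex, overlapped between groups. Orc1 had 1.97, 2.44 and 1.32 CPM untreated and 2.07, 1.77 and 1.34 CPM conditioned, with a log2 fold change of -0.14 (edgeR adjusted p = 0.749, SE 0.27); it was 0.07 without untreated replicate 2. Orc6 went from 7.097 ± 1.05 to 6.15 ± 1.09 CPM, with a log2 fold change of -0.21 (edgeR adjusted p = 0.392, SE 0.16). Without conditioned-medium replicate 3 the Orc6 value was -0.07, and no difference was detectable for either subunit with these wells.

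All 10 genes of the replicative helicase fell, which made it 1 of 2 roles in which every gene was called, and their summed level went from 268 ± 28.3 to 161 ± 12.3 CPM (SD, n = 3 per group), 1.67-fold lower. Mcm5, a subunit of the MCM2-7 ring (ENSMUSG00000005410, chromosome 8, 75109569 to 75128439, GRCm38), had 32.9, 43.1 and 30.8 CPM in untreated wells and 13.8, 14.6 and 10.7 CPM in conditioned medium. The highest conditioned well was well under the lowest untreated well. The level was 2.72-fold lower, with a log2 fold change of -1.45 (edgeR adjusted p = 9.84e-05, SE 0.14), the lowest of the 40. Mcm6, the subunit whose promoter stretch holds 3 E2F matches, had 62.3, 67.4 and 54.2 CPM untreated and 35.99, 35.1 and 29.8 CPM conditioned, and the log2 fold change was -0.86 (edgeR adjusted p = 0.00014, SE 0.09). Mcm10, a scaffold that helps the helicase start moving, had 8.15, 9.25 and 8.901 CPM untreated and 4.99, 3.94 and 2.99 CPM conditioned. Its groups were also apart, with a log2 fold change of -1.14 (edgeR adjusted p = 0.00108, SE 0.17). For the other ring subunits the estimates were nearer 0. Their log2 fold changes were -0.60 for Mcm2 (adjusted p = 0.000951, edgeR), -0.56 for Mcm3 (0.000259), -0.53 for Mcm7 (0.00235) and -0.42 for Mcm4 (0.00430).

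The factors that complete the active helicase were Cdc45 and the GINS complex. Gins1 had 5.02, 5.74 and 4.13 CPM untreated and 2.56, 2.73 and 2.34 CPM conditioned, with a log2 fold change of -0.96 (edgeR adjusted p = 0.00238, SE 0.17). Gins2 fell from 8.26 ± 1.09 to 4.57 ± 0.220 CPM, with a log2 fold change of -0.85 (edgeR adjusted p = 0.00102, SE 0.13), and its exons overlap those of Gse1 on the opposite strand, so its count is uncertain. Cdc45 fell from 5.196 ± 0.650 to 3.56 ± 0.427 CPM, with a log2 fold change of -0.54 (edgeR adjusted p = 0.0282, SE 0.16). Of these 3 genes only Cdc45 lost its call when a library was left out: its adjusted p was 0.0767 to 0.0962 without untreated replicate 1 or 2 or conditioned-medium replicate 1 or 3, and Cdc45 also overlaps Ufd1 on the opposite strand. In the active helicase the 6 ring subunits sit in equal numbers, and the estimates for their RNAs ranged from -1.45 to -0.42. Per kilobase of annotated exon, Mcm5 made up 14.9%, 17.2% and 15.3% of the summed MCM2-7 level in untreated wells and 9.77%, 10.2% and 8.55% in conditioned medium. Annotated exons together can be longer than the transcript. The shares are therefore not proportions of the subunit RNAs, and only their difference between groups is read. Over the same wells the mean share of Mcm4 went from 15.5% ± 0.417 to 19.0% ± 0.507 and that of Mcm3 from 25.5% ± 1.08 to 28.4% ± 0.958 (SD, n = 3 per group). Mcm5 was singled out after its values were seen, so these shares are given without a test.

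**Figure D2:**
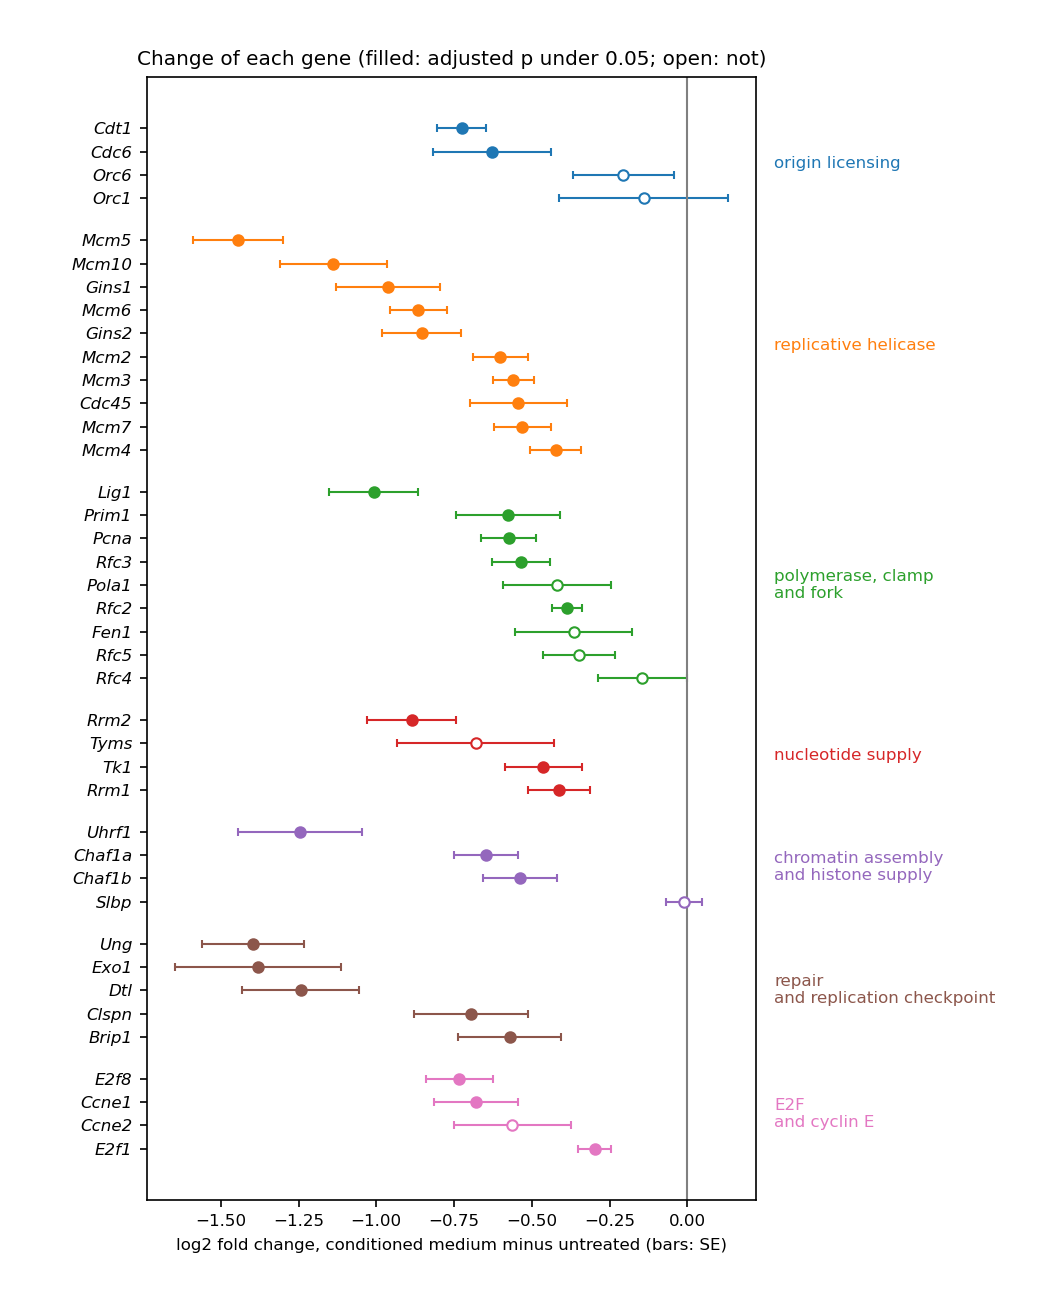
Log2 fold change of each of the 40 genes (x axis, conditioned medium minus untreated) with its standard error, grouped and coloured by role; filled points passed an adjusted p of 0.05 by edgeR's quasi-likelihood test and open points did not. Every point lies left of 0, Mcm5 farthest at -1.45 and Slbp nearest at -0.01.

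Of 9 genes of the polymerases, clamp and fork, 5 fell, and 7 did with the replicate block; the median log2 fold change was -0.42. Pcna, the ring-shaped clamp that holds polymerases on DNA, had 181, 190.1 and 158 CPM untreated and 122, 129 and 104 CPM conditioned. No conditioned well reached the untreated range, and the log2 fold change was -0.57 (edgeR adjusted p = 0.00119, SE 0.09). Lig1, the ligase that joins Okazaki fragments, had 29.2, 31.1 and 22.5 CPM untreated and 13.2, 16.3 and 11.7 CPM conditioned, 2.01-fold lower, with a log2 fold change of -1.01 (edgeR adjusted p = 0.000751, SE 0.14). It was the lowest of the 9. Fen1, the nuclease that trims those fragments before ligation, had 4.098, 3.96 and 2.81 CPM untreated and 2.82, 3.05 and 2.55 CPM conditioned. Its groups overlapped and it was not called, with a log2 fold change of -0.37 (edgeR adjusted p = 0.186, SE 0.19) and an adjusted p of 0.104 with the block. Most of the Fen1 exon bases overlap Gm10143 on the opposite strand, so its count is uncertain.

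Pola1, the catalytic subunit of polymerase alpha, had 12.5, 12.02 and 9.86 CPM untreated and 8.07, 10.97 and 6.64 CPM conditioned. Conditioned-medium replicate 2 lay inside the untreated range, and the log2 fold change was -0.42 (edgeR adjusted p = 0.107, SE 0.17). With the replicate block the adjusted p was 0.00528, and without conditioned-medium replicate 2 the log2 fold change was -0.64 and the adjusted p was 0.0150. Its partner Prim1, the catalytic primase subunit, fell from 7.05 ± 1.04 to 4.72 ± 0.838 CPM, with a log2 fold change of -0.58 (edgeR adjusted p = 0.0295, SE 0.17). That call was lost without untreated replicate 1 or 2 or conditioned-medium replicate 2 or 3, with adjusted p of 0.0658 to 0.109. The Rfc genes encode the loader that opens the clamp. Rfc3 fell from 12.5 ± 0.308 to 8.62 ± 0.824 CPM (-0.54 log2, adjusted p = 0.00239, edgeR) and Rfc2 from 64.8 ± 3.15 to 49.6 ± 1.02 CPM (-0.39, adjusted p = 0.000408). Rfc5 went from 22.3 ± 2.19 to 17.5 ± 2.79 CPM and was not called (log2 fold change -0.35, edgeR adjusted p = 0.0528, SE 0.12), but was with the block (adjusted p = 0.00116). Without untreated replicate 3 or conditioned-medium replicate 2, the Rfc5 adjusted p was 0.0132 to 0.0301. Rfc4 had 4.47, 5.24 and 4.81 CPM untreated and 4.89, 4.43 and 3.82 CPM conditioned, overlapping, with a log2 fold change of -0.14 (edgeR adjusted p = 0.500, SE 0.14). Rfc2 and Rfc5 each overlap, on the opposite strand, a gene that fell: Lat2 (log2 fold change -1.28, adjusted p = 1.16e-06 by edgeR) and Wsb2 (-0.66, adjusted p = 6.9e-05). The part of those reads in the counts of Rfc2 and Rfc5 was not tested.

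Genes that supply deoxynucleotides numbered 4, of which 3 fell, and 4 did with the replicate block. Rrm2, the small subunit of ribonucleotide reductase that is made in S phase, had 16.2, 19.1 and 15.8 CPM untreated and 10.9, 9.56 and 7.16 CPM conditioned. The groups were apart, and the log2 fold change was -0.89 (edgeR adjusted p = 0.00167, SE 0.14). Its larger partner Rrm1 had an estimate nearer 0 and fell from 53.6 ± 6.66 to 40.3 ± 4.29 CPM, with a log2 fold change of -0.41 (edgeR adjusted p = 0.0132, SE 0.10); the call was lost without untreated replicate 2 or conditioned-medium replicate 1 (adjusted p = 0.0581 and 0.0524, edgeR). Tk1, thymidine kinase of the salvage route, fell from 18.5 ± 3.37 to 13.4 ± 0.644 CPM, with a log2 fold change of -0.46 (edgeR adjusted p = 0.0209, SE 0.12). Its call was lost without untreated replicate 1 or 2 or conditioned-medium replicate 1 or 3, with adjusted p of 0.0532 to 0.0829. Tyms, thymidylate synthase of the de novo route, had 6.23, 6.52 and 3.89 CPM untreated and 4.43, 3.51 and 2.41 CPM conditioned. Untreated replicate 3 lay below conditioned-medium replicate 1, so the groups overlapped. The log2 fold change was -0.68 (edgeR adjusted p = 0.0753, SE 0.25), while within each replicate number the conditioned well was the lower one and the block gave an adjusted p of 0.00128. Without untreated replicate 3 the Tyms adjusted p was 0.0220, by the same edgeR test. Tyms also shares up to 361 bases of at least 95% identity with transcripts of other genes, so part of its count is uncertain.

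Chromatin behind the fork was represented by 4 genes, of which 3 fell. Uhrf1, which recruits the maintenance DNA methyltransferase to newly copied DNA, had 21.95, 25.6 and 16.9 CPM untreated and 9.94, 10.8 and 6.33 CPM conditioned. It was 2.37-fold lower without overlap, with a log2 fold change of -1.25 (edgeR adjusted p = 0.00148, SE 0.20). Chaf1a and Chaf1b, subunits of the histone chaperone CAF-1, fell together, Chaf1a from 10.8 ± 0.803 to 6.91 ± 0.527 CPM (-0.65 log2, adjusted p = 0.00143, edgeR) and Chaf1b from 7.65 ± 0.906 to 5.27 ± 0.105 CPM (-0.54, adjusted p = 0.00872). Chaf1a overlaps Ubxn6 on the opposite strand, and Ubxn6 itself was not called. Slbp, which binds the stem-loop of histone mRNAs, had 28.9, 29.7 and 31.3 CPM untreated and 28.3, 30.9 and 29.98 CPM conditioned. Its wells were interleaved and the log2 fold change was -0.01 (edgeR adjusted p = 0.914, SE 0.06). That standard error is among the smaller of the 40, and the Slbp value stayed between -0.04 and 0.05 under every alternative run.

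All 5 genes of repair and the replication checkpoint fell, with a median log2 fold change of -1.24, the lowest of the 7 roles. Their summed level went from 26.5 ± 3.94 to 13.96 ± 1.098 CPM (SD, n = 3 per group), 1.899-fold lower. Ung, the glycosylase that removes uracil from newly made DNA, had 3.81, 3.63 and 3.73 CPM untreated and 1.38, 1.41 and 1.45 CPM conditioned. The wells of each group lay close together and far from those of the other. The level was 2.63-fold lower, with a log2 fold change of -1.40 (edgeR adjusted p = 0.000264, SE 0.16). Exo1, a mismatch repair exonuclease, had 2.97, 2.81 and 1.96 CPM untreated and 1.28, 0.919 and 0.757 CPM conditioned. Its groups did not overlap either, and the log2 fold change was -1.38 (edgeR adjusted p = 0.00423, SE 0.27), with the largest standard error among the genes called. Dtl, the adaptor that sends Cdt1 for destruction in S phase, had 7.11, 6.28 and 5.01 CPM untreated and 3.15, 2.36 and 2.24 CPM conditioned. Its log2 fold change was -1.24 (edgeR adjusted p = 0.00108, SE 0.19), so both Dtl and Cdt1, its substrate, fell at the RNA level. Clspn, which relays the stalled-fork signal to the kinase Chk1, fell from 8.71 ± 1.77 to 5.37 ± 1.01 CPM, with a log2 fold change of -0.69 (edgeR adjusted p = 0.0199, SE 0.18). Brip1, a helicase of fork repair, fell from 5.36 ± 1.00 to 3.61 ± 0.349 CPM, with a log2 fold change of -0.57 (edgeR adjusted p = 0.0303, SE 0.17). The Clspn call was lost without untreated replicate 1 or 2 or conditioned-medium replicate 1 (adjusted p of 0.0564 to 0.0856). The Brip1 call was lost without replicate 1 or 2 of either group (0.0546 to 0.12).

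The regulators were 2 E2F genes and 2 cyclin E genes, of which 3 fell, and 4 did with the replicate block. E2f1, an activator of S-phase genes, had 38.1, 38.4 and 35.9 CPM untreated and 31.8, 29.9 and 29.8 CPM conditioned. The groups were apart but close, and the log2 fold change was -0.30 (edgeR adjusted p = 0.00280, SE 0.05), the smallest among the 31 genes that fell. E2f8, a repressor that is itself induced by E2F, had 11.9, 12.8 and 10.8 CPM untreated and 7.74, 7.19 and 6.403 CPM conditioned, with a log2 fold change of -0.73 (edgeR adjusted p = 0.00093, SE 0.11). Ccne1, cyclin E1, fell from 5.22 ± 0.229 to 3.25 ± 0.308 CPM, with a log2 fold change of -0.68 (edgeR adjusted p = 0.00505, SE 0.14). Ccne2, cyclin E2, had 4.22, 4.29 and 3.53 CPM untreated and 2.79, 3.22 and 2.13 CPM conditioned. It was the gene whose groups did not overlap yet was not called, with a log2 fold change of -0.56 (edgeR adjusted p = 0.0515, SE 0.19) and an adjusted p of 0.0108 with the block. Without untreated replicate 3 or conditioned-medium replicate 2 the Ccne2 adjusted p was 0.0393 to 0.0464, and Ccne2 overlaps Ints8 on the opposite strand.

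**Figure D3:**
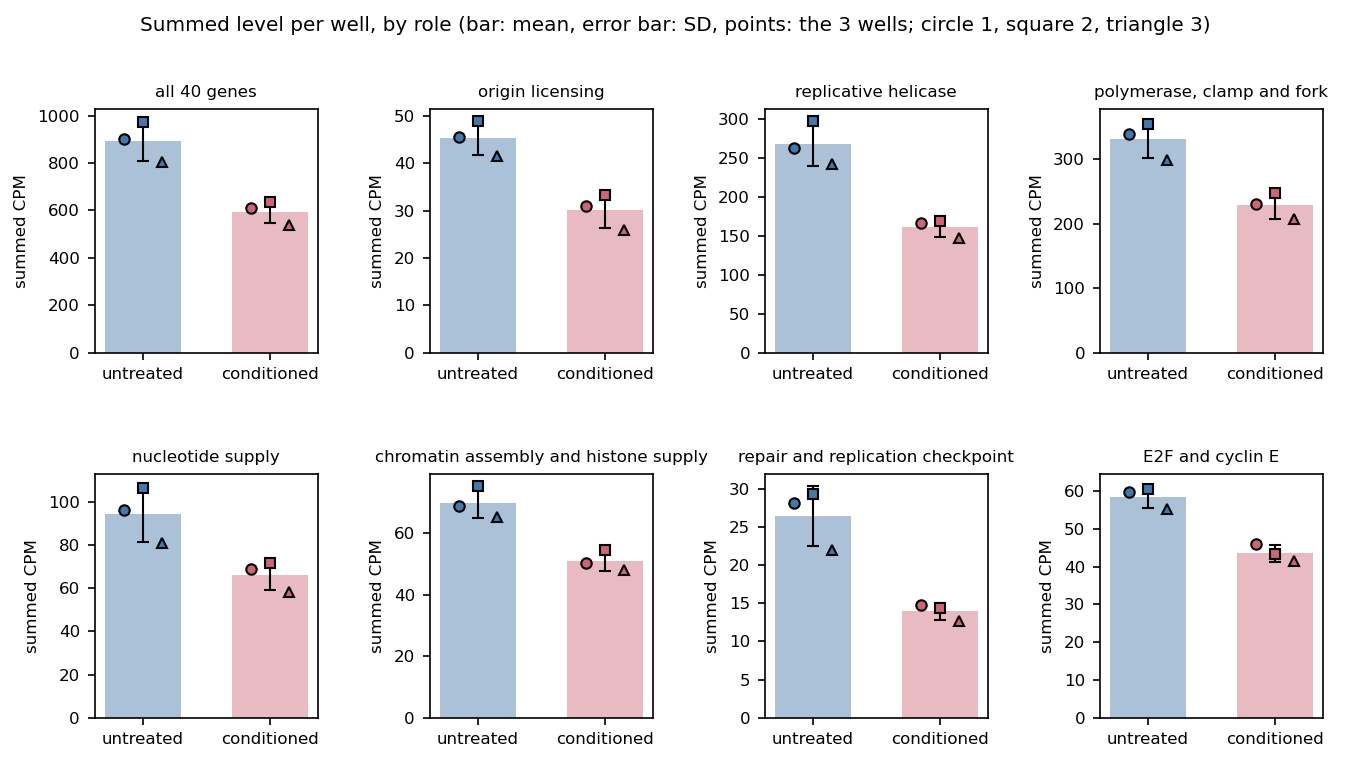
Summed CPM of the 40 genes and of each role in each well; bars are means, error bars SD (n = 3 per group) and symbols the wells by replicate number (circle 1, square 2, triangle 3). In every panel the highest conditioned well lies below the lowest untreated well, and the triangles are the lowest of their group.

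Levels of different genes were set beside each other as CPM per kilobase of annotated exon (RPKM). That length joins all annotated exons of a gene and can exceed the length of its transcript, so the order is approximate. On that scale Pcna was the most abundant of the 40, at 73.5 untreated and 49.4 in conditioned medium. Mcm3 (14.3 untreated), Mcm6 (13.1), E2f1 (11.9) and Rfc2 (10.3) came next. Exo1 was the lowest, at 0.306 untreated and 0.117 conditioned, followed by Dtl (0.447 untreated) and Orc1 (0.548). Exo1 and Dtl had among the lowest log2 fold changes and Orc1 did not pass the test.

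Within each group the replication genes mostly ranked the wells alike. Untreated replicate 2 was the highest untreated well for 30 of the 40 genes and untreated replicate 3 the lowest for 33, whereas over all tested genes those wells were highest for 30.8% and lowest for 35.9%. Conditioned-medium replicate 2 was the highest conditioned well for 23 of the 40 and conditioned-medium replicate 3 the lowest for 32, against 34.1% and 38.1% of all tested genes. Wells of the same number deviated together over all tested genes, so differences were also taken within each number. The conditioned well was the lower one in all 3 pairs for 37 of the 40 genes, and the exceptions were Orc1, Rfc4 and Slbp. The median log2 difference of the 40 was -0.59, -0.64 and -0.62 for replicates 1, 2 and 3, against 0.01, 0.00 and 0.00 over all tested genes. Without both libraries numbered 3, 33 of the 40 fell and 0 rose, while 2209 of all tested genes fell and 1871 rose.

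Markers of the cell types that a marrow culture can hold were summed in the same wells. Over all tested genes, 15.2% fell and 12.6% rose (19.3% and 17% with the replicate block). The 5 haematopoietic progenitor markers summed to 11.5 to 17.3 CPM untreated and 6.95 to 12.02 CPM conditioned, and Kit, Flt3 and Gata2 fell; with the replicate block 1 of the 5 rose. In both groups replicate 2 was the highest well and replicate 3 the lowest for that sum, which is the order of the replication genes. That order was not particular to progenitor markers. The mast cell and basophil and the B cell sums had it too, as did that of the G2 and mitosis genes. The T and NK cell and erythroid sums also had it, but their order says little about those cell types. Cd4 carried the first of these 2 sums, and the erythroid sum was at most 0.624 CPM. The macrophage, neutrophil precursor, fibroblast and epithelial sums did not have that order. The 5 mast cell and basophil markers summed to 6.54 to 7.89 CPM untreated and 1.45 to 3.68 CPM conditioned, and the 3 that could be tested (Cpa3, Mcpt8 and Ms4a2) fell. Neutrophil precursor markers summed to 104 to 140 CPM and 91.4 to 114 CPM, with 1 of 7 higher and 2 lower (4 and 2 with the block). Ltf and Camp fell, and Ltf was the largest part of that sum (76.9 CPM untreated and 47.7 CPM conditioned on average). Prtn3 rose, and Mpo, Elane and Ctsg were higher with the block only, so the sum does not stand for the list. The B cell markers summed to 14.2 to 17.3 CPM and 10.9 to 16.7 CPM, with 1 of 5 lower. Of the 5 T and NK cell markers, Cd3e, Cd3g, Cd8a and Ncr1 were at or near 0, at most 0.248 CPM in any well, and were not tested. Cd4 carried the sum of that list, which was 105 to 201 CPM, and was not called (0.24, adjusted p = 0.446 by edgeR, and 0.00180 with the block). The 6 fibroblast markers summed to 16.6 to 67.2 CPM and 31.6 to 93.4 CPM, with 0 called and 4 higher with the block. Erythroid markers summed to at most 0.624 CPM, with 2 of 6, Hbb-bs and Hbb-bt, at 0. Of the macrophage markers, Csf1r, the receptor for M-CSF, rose from 4085 ± 479.6 to 5720.0 ± 270.4 CPM, with a log2 fold change of 0.49 (edgeR adjusted p = 0.00178, SE 0.08). Itgam (0.55) and Mertk (0.34) rose too. Cd68 (-0.66, edgeR adjusted p = 3.93e-05, SE 0.06), Fcgr1 (-0.42, edgeR adjusted p = 0.00949, SE 0.10) and Adgre1, which encodes F4/80 (-0.39, edgeR adjusted p = 0.000427, SE 0.05), fell. The part of these cell types in the fall of the replication genes was not tested.

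Within the protein complexes that the 40 genes belong to, the other subunits were not all called. The origin recognition complex had Orc2 at -0.02, Orc3 at 0.14 and Orc4 at 0.14 on the log2 scale, none of them called (with the block Orc3 was higher, adjusted p = 0.0480 by edgeR), while Orc5 rose (log2 fold change 0.26, edgeR adjusted p = 0.00912, SE 0.06). In GINS, Gins3 (-0.13, adjusted p = 0.469 by edgeR) and Gins4 (-0.17, adjusted p = 0.0585) were not called, beside Gins1 and Gins2, which fell. Of the leading-strand polymerase epsilon, the catalytic subunit gene Pole fell from 8.08 ± 1.34 to 3.795 ± 0.329 CPM (log2 change -1.09, edgeR adjusted p = 0.000618, SE 0.15), and Pole2, Pole3 and Pole4 were not called, at -0.25, -0.14 and -0.22. With the block Pole4 was lower (adjusted p = 0.0192, edgeR). Polymerase delta had Pold1, its catalytic subunit gene, lower at -0.53 (edgeR adjusted p = 0.00101, SE 0.08) and Pold2, Pold3 and Pold4 at -0.16, -0.16 and 0.25, none called. With the block Pold3 was lower (adjusted p = 0.0184, edgeR) and Pold4 higher (0.0190). In polymerase alpha-primase, Pola2 fell (-0.21, adjusted p = 0.0421, edgeR) and Prim2 was not called (-0.05). The large clamp loader subunit gene Rfc1 fell (-0.15, adjusted p = 0.0400, edgeR). Of the single-strand binding protein RPA, Rpa1 (-0.21, adjusted p = 0.0259) and Rpa2 (-0.45, adjusted p = 0.00932) fell and Rpa3 rose (0.35, adjusted p = 0.0375, edgeR). Rbbp4, the CAF-1 subunit shared with other chromatin complexes, was at 0.12 and not called, but was higher with the block (adjusted p = 0.0381, edgeR). Differences between subunits were not tested.

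**Figure D4:**
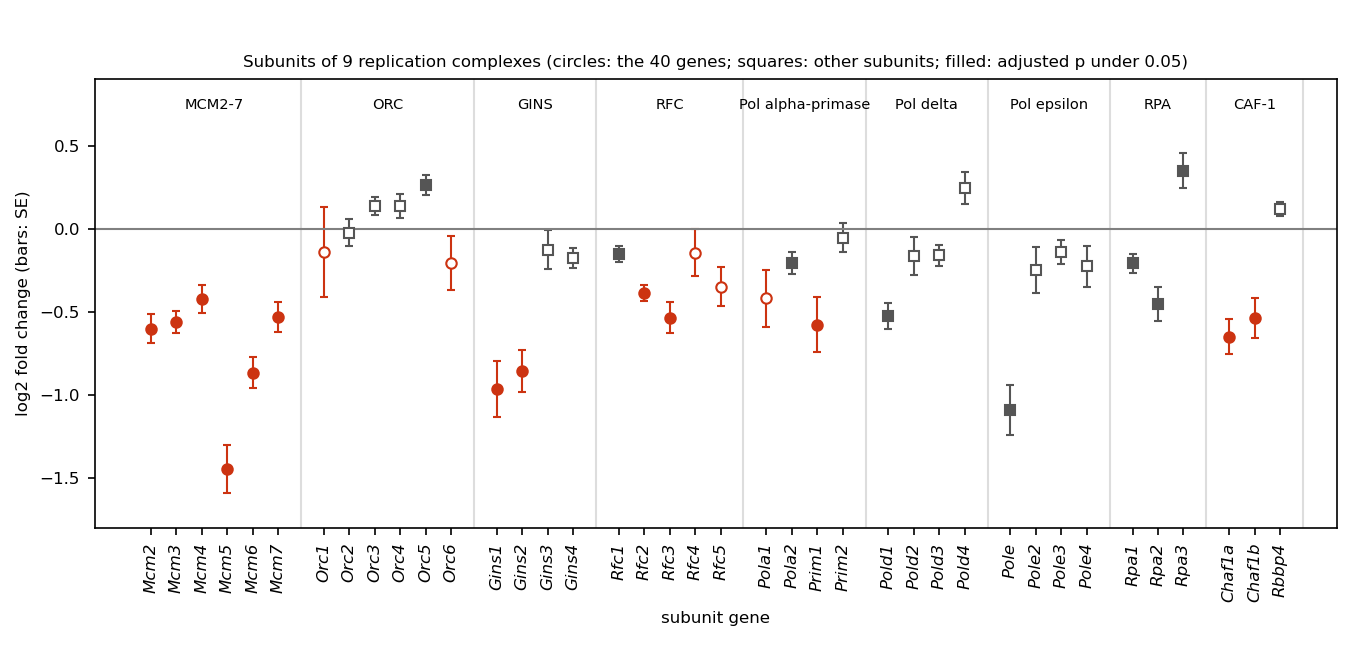
Log2 fold change with standard error for every subunit gene of 9 replication complexes; red circles are among the 40 genes, grey squares are the other subunits, and filled symbols passed an adjusted p of 0.05. The 6 MCM2-7 genes are all filled and below 0, while Orc5 and Rpa3 are filled and above 0.

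Other genes of each process were read from lists of known factors that leave out the 40. The counts below stand beside 15.2% of all tested genes that fell and 12.6% that rose (19.3% and 17% with the block). Of 15 other licensing and firing factors, 4 fell and 1 rose (5 and 2 with the block; median log2 fold change -0.14), with Ticrr (-1.12), which helps load Cdc45, the kinase gene Cdc7 (-0.93) and the Cdt1 inhibitor gene Gmnn (-0.28) among those that fell. Of 26 tested polymerase and fork genes, 12 fell and 1 rose (16 and 2 with the block; median -0.24), led by the fork protection gene Timeless (-1.29), the clamp loader gene Chtf18 (-1.10) and Pole (-1.09). Nucleotide supply had 10 of 20 that fell and 10 not called (14 fell with the block; median -0.29), among them the salvage kinase gene Dck (-0.84) and the mitochondrial folate enzyme gene Mthfd2 (-0.68). Replication-coupled chromatin had 6 of 13 that fell and 7 not called, with 1 higher under the block (median -0.26), led by Cdca7 (-1.37), Cdca7l (-0.92) and the histone chaperone gene Asf1b (-0.57). Among checkpoint and fork repair genes, 10 of 20 fell and the rest were not called (11 fell with the block; median -0.25), led by Chek1 (-1.30), which encodes the kinase Chk1, Rad51ap1 (-1.04) and Fancd2 (-0.98). All of these medians lie between that of the 40 genes and that of all tested genes.

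The E2F, pocket protein and DREAM list had 7 of 21 genes that fell and 2 that rose, with a median log2 fold change of -0.03. Of all tested genes, 15.2% fell and 12.6% rose. The share of the list that rose was thus not above the share of all tested genes. Among those that fell were the repressor gene E2f7 (-1.07), Foxm1 (-0.92) and Mybl2 (-0.83), which act later in the cycle. The 2 that rose were the pocket protein genes Rb1, from 55.96 ± 2.86 to 66.02 ± 2.13 CPM (log2 change 0.24, edgeR adjusted p = 0.00761, SE 0.05), and Rbl2, from 56.8 ± 2.65 to 67.2 ± 0.381 CPM (0.24, edgeR adjusted p = 0.00419, SE 0.05). The remaining pocket protein gene, Rbl1, fell from 32.8 ± 1.298 to 21.6 ± 1.59 CPM (-0.60, edgeR adjusted p = 0.000186, SE 0.07). With the replicate block, 4 of the 21 rose and 8 fell, against 17% and 19.3% of all tested genes. Genes of G2 and mitosis, a later phase, had 18 of 25 that fell and 7 not called, with a median of -0.60; with the block 20 fell and Cenpa rose. Cenpf (-1.09), Ndc80 (-0.97) and Cenpe (-0.88), which act at the kinetochore, had the lowest values. The proliferation marker gene Mki67, named after its values were seen, had 68.3, 88.5 and 62.3 CPM untreated and 59.9, 74.5 and 74.4 CPM conditioned, overlapping, with a log2 fold change of -0.07 (edgeR adjusted p = 0.730, SE 0.13). Translesion and repair synthesis genes, a list of polymerases, ligases and other repair factors, had 1 of 11 that fell (Parp1, -0.23) and 1 that rose (Polk, 0.31), with a median of 0.00. Neither share was above that of all tested genes.

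**Figure D5:**
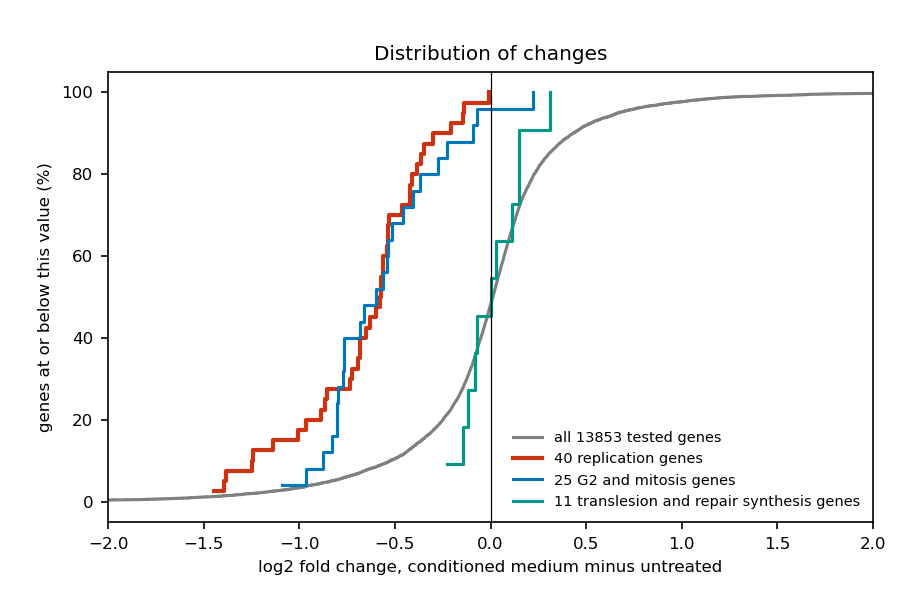
Share of genes (y axis, percent) with a log2 fold change at or below the value on the x axis, for all 13853 tested genes, the 40 replication genes, 25 G2 and mitosis genes and 11 translesion and repair synthesis genes. The curves of the replication and the G2 and mitosis genes lie left of the curve of all genes, with medians of -0.57 and -0.60, and that of the translesion genes has its median at 0.00.

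Counting without a known strand setting leaves some of the 40 uncertain. Exons of 13 overlapped a gene on the opposite strand that had at least 100 counts over the 6 libraries: Orc1, Orc6, Mcm7, Cdc45, Gins2, Rfc2, Rfc4, Rfc5, Fen1, Lig1, Tk1, Chaf1a and Ccne2. Of these 13, 7 fell, against 24 of the 27 without such a partner and 15.2% of all tested genes. Orc6 (1073 counts over all libraries) overlaps Vps35 (34864 counts), Rfc4 (749) overlaps Eif4a2 (26175) and Fen1 (517) overlaps Tmem258 (5525). The part of the partners' reads in those counts was not tested, and none of those 3 partners was called. Under the cut of 100 counts, longer overlaps on the opposite strand remain. Gm10143 (24 counts) covers 1909 of the 2422 exon bases of Fen1, and Gm2788 (54 counts) covers 610 exon bases of E2f8. How reads in those shared bases were counted is not known here, so the counts of Fen1 and E2f8 are uncertain too. Processed pseudogenes of at least 95% identity over at least 300 bases had few counts: Pcna-ps2 had 102 against 23567 for Pcna, Gm5487 had 2 against 4285 for Mcm7, Gm12870 had 22 against 3205 for Rfc5, and Gm5648 had 4 against 2383 for Uhrf1. Those low counts do not show how many reads were shared, because the setting for reads that fit several places was not known here.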

How the data were processed

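RNA was measured by sequencing of oligo(dT)-enriched mRNA in 6 wells, grouped by their treatment labels. Per the submitters' processing notes, the authors aligned reads to GRCm38 with HISAT2 and counted them with featureCounts; the sources used here give no versions, strand setting or annotation release. The deposited values are whole-number counts per gene. Of 55421 rows, 55154 were given symbols by identifier from the GENCODE M21 table, and start and end matched for 54948. RPKM used the deposited gene lengths, which equalled the union of the exons listed for the gene in all 55421 rows.

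Genes were kept by filterByExpr, scaled by TMM and compared with edgeR's quasi-likelihood test on group alone (edgeR 4.0.16, limma 3.58.1, R 4.3.3), with Benjamini-Hochberg adjustment over 13853 genes and a threshold of 0.05; a sentence that prints an adjusted p of another test names that test. The SE (standard error) of a log2 fold change is its size over the square root of F. The scripts were tested on simulated data. The 40 genes and all lists were chosen with earlier results of these data known. All 40 are named, with up to 3 genes per process list: those with the largest change past the threshold. 1 gene that this rule names is not reported here. Marker lists are given as sums.

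The groups share replicate numbers, with no label saying what they stand for. Deviations from the group means correlated at 0.328, 0.161 and 0.309 between same-number wells and at -0.289 to 0.0112 between others, so a fit with the number as a block is given where it changes a call. The 16 alternatives were RLE scaling, no scaling, DESeq2 1.42.0, limma-voom, a robust fit, no filter, a filter at a mean of 1 CPM, the block, leaving out each library, leaving out both libraries numbered 3, and thinning to the smallest total. Sequences of windows come from RefSeq (GRCm38.p6). Counting limits cover counting error only.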

Additional observations from a re-analysis of the deposited data

How the results depend on the processing

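Under the 16 alternatives, 24 to 35 of the 40 genes fell and 0 rose, against 31 and 0. The range was 24 to 34 when 1 library was left out, and the replicate block gave 35 and 0; it added Pola1, Rfc5, Tyms and Ccne2 and changed no other call among the 40. The median log2 fold change of the 40 stayed between -0.66 and -0.51. The count of genes that fell by more than 1.5-fold, 6, was 3 without scaling, 2 with DESeq2, 2 with limma-voom, and 2 to 7 when 1 library was left out. Under those settings, genes beyond 1.5-fold were not counted over all tested genes. Of 640 values (40 genes under 16 alternatives), 585 kept their direction and their side of the threshold, 26 lost the call, 21 gained it and 8 changed sign. With 1 library left out, Orc1 ranged from -0.3468 to 0.074 and Slbp from -0.0442 to 0.0227. The sign changes were in genes that were not called: Orc1 was 0.074 without untreated replicate 2 and 0.0074 without conditioned-medium replicate 3, and Slbp was 0.0479 without scaling, 0.0067 without the low-count filter, 0.0227 without untreated replicate 3, 0.0216 without conditioned-medium replicate 1, 0.0168 without both libraries numbered 3 and 0.0069 after thinning. The cause was not tested. Among all tested genes, calls were 2656 higher and 1710 lower without scaling, against 1749 and 2112. The count of higher genes was 1146 without untreated replicate 2 and 1160 without conditioned-medium replicate 1. Over the 16 alternatives, the count of lower genes ran from 1579 without untreated replicate 2 to 2668 with the block. Depth limits the genes with the lowest counts, such as Exo1, Orc1 and Ung.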
